A study of Mus musculus with 6 samples.

Results

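The 9 genes described here encode receptors through which neutrophils sense chemoattractants and related extracellular mediators, and they were chosen by gene symbol from the 54532 genes of the deposited table. They are the chemokine receptors Cxcr2, Cxcr4 and Ccr1, the formyl peptide receptors Fpr1 and Fpr2, the lipid mediator receptors Ltb4r1 and Ptafr, the adenosine receptor Adora2a and the nucleotide receptor P2ry2. Each symbol matched exactly 1 row. RNA was sequenced from C57BL/6J mouse neutrophils of the bone marrow, 3 cultures from wild-type (WT) mice and 3 from progranulin knockout (PGRN KO) mice, and every culture was challenged in vitro with Candida albicans for 6 h after 2 h in culture. Cultures without the fungus were not analysed here, so the comparison is between genotypes among challenged cells. The labels call the WT cultures controls and give a ratio of fungus to cells of 1:1 for all 6, whereas the study text gives another ratio. The knockout is carried by the whole animal, the cells were taken with Ly-6G beads, and the sources used here do not say how many mice stood behind a culture, so p-values measure only the spread between these cultures.

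All of these receptors cross the membrane with 7 helices and signal through G proteins, as background, and most couple to the inhibitory class Gi, whose beta and gamma subunits drive phosphoinositide 3-kinase gamma, calcium release and the actin changes of directed movement. CXCR2 draws mature neutrophils out of the marrow and towards CXC chemokines, while CXCR4 holds them back through CXCL12. Formyl peptide, leukotriene B4 and platelet-activating factor receptors guide cells over the last distance to microbes and damaged tissue, P2Y2 answers to ATP that the moving cell itself releases, and the adenosine receptor encoded by Adora2a, coupled to Gs, restrains the activated neutrophil.

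Values are FPKM, fragments per kilobase of gene length scaled by the authors to a common library size. Levels of different genes are compared here with the deposited gene lengths, which do not exceed the transcripts evenly. The length used was 3927 bases for P2ry2, whose longest annotated transcript has 3011. For Ltb4r1 it was 1394 bases, the same as its longest transcript. The libraries held 17087344 to 18821091 fragments on genes, and the 9 receptors were measured from 774 to 16410 fragments in a library. Their mean level over the 6 libraries lay at or above the 84.9th percentile of the genes tested. Grn, the targeted gene, had an FPKM of 161.3 to 168.4 in WT and of 0.206 to 0.747 in PGRN KO. Of 7 neutrophil markers, S100a9 was the highest, Mmp9 rose (log2 fold change 0.25) and Csf3r fell (-0.16), the last not under plain totals, quantile normalization or voom, and none of the 7 was called without WT replicate 1, 2 or 3 or PGRN KO replicate 5. Their summed FPKM lay between 62491 and 66579 in WT and between 63826 and 73481 in PGRN KO.

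Several sequences show how far these genes can be told apart and what lies upstream of them. Fpr1 and Fpr2 are neighbours on chromosome 17, and their coding sequences are 66.4% identical over 1099 aligned positions. The longest run that they share is 50 bases, at chr17:17877280-17877329 in Fpr1 (minus strand) and chr17:17893116-17893165 in Fpr2 (plus strand) of GRCm38. It is the stretch shown here, and the reads of the study were longer than it.
Fpr1 and Fpr2 shared run: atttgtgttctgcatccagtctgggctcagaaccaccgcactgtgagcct
It accounts for 1 of 1275 windows of 50 bases in the Fpr1 transcript of GENCODE M21. In Fpr2, 403 of 1084 such windows (37.2%) also occur in a transcript of Fpr1, of Fpr3 or of the pseudogene Gm5966. The gene body of Fpr3 overlaps that of Fpr2 on the same strand. Windows shorter than the reads do not measure how many reads were shared, and the split between Fpr2 and these relatives was not tested. For Cxcr2 203 of 2997 windows (6.77%) and for Ptafr 59 of 3588 (1.64%) recur in other genes, and for the other 5 receptors none did.

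The 250 bases upstream of the RefSeq start were found for 8 of the 9 genes, Adora2a having no entry, and 3 are shown because Ptafr and P2ry2 were lower in PGRN KO and Ltb4r1, the other lipid mediator receptor, was not. Capitals mark the letters GAGGAA or their complement TTCCTC, the core bound by PU.1, the master transcription factor of myeloid cells, and by other ETS factors. The windows are on GRCm38.p6, at chr4:132563817-132564066 (plus strand) for Ptafr, chr7:101012054-101012303 (minus strand) for P2ry2 and chr14:55765712-55765961 (plus strand) for Ltb4r1.
Ptafr: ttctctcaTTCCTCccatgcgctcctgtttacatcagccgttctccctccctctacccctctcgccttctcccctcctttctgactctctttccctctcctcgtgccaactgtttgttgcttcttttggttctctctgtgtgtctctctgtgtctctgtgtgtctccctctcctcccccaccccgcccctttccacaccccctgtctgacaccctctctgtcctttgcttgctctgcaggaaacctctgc
P2ry2: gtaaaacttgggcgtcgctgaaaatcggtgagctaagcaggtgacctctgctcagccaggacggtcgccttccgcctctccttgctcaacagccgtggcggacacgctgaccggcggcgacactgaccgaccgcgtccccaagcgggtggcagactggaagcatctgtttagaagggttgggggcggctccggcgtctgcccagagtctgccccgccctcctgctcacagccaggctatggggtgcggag
Ltb4r1: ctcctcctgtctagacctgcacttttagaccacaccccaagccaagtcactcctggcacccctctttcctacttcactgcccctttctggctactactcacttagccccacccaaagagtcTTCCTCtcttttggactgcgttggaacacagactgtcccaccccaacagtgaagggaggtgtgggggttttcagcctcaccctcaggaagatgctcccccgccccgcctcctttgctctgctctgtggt
The core was present on either strand in 5 of the 8 genes (Ccr1, Cxcr2, Fpr2, Ltb4r1 and Ptafr), against 23.3% of 32851 windows of the same length. P2ry2, for which RefSeq gives a second start nearby, held it in neither window. GGGCGG, the GC box, was found in 4 of the 8 (Cxcr4, Ltb4r1, P2ry2 and Ptafr), against 32.7% of all windows, and the TATA box TATAAA in 3 (Cxcr4, Fpr1 and Fpr2), against 12.4%. TTGCNNAA, a short C/EBP motif, was found in P2ry2 alone, against 9.56% of all windows. No match to the NF-kB motif (4.11% of all windows) or TGANTCA (AP-1, 6.75%) was found in any of the 8. These are matches of letters and not sites shown to be bound, and neither the core nor the GC box separates the receptors that were lower from those that were not.

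P2ry2, Ptafr and Adora2a fell in PGRN KO neutrophils to 0.634, 0.685 and 0.711 times the WT mean, and each had every PGRN KO library below every WT library. No receptor was called higher. The 3 chemokine receptors, both formyl peptide receptors and Ltb4r1 did not pass the threshold. In all, 3 of 9 receptors were called lower by limma, with an adjusted p below 0.05, where of all 14807 genes tested 9.95% were called lower and 7.94% higher, or 17.9% in either direction. Genes of low level are included there. A fit on the 9249 genes averaging 1 FPKM or more called a larger share, 2868 genes, 1598 lower and 1270 higher, and again 3 receptors. All 9 receptors are among those 9249 genes, so 3 of 9 is better read beside that larger share than beside 17.9%. At an unadjusted p under 0.05 in limma there were 4 receptors, the fourth being Cxcr4. So were 4750 of all 14807 genes tested, and 3908 in the fit on 9249 genes. The groups did not overlap for 4 receptors, all lower in PGRN KO, where 37.7% of all genes tested did not overlap, 19.6% lower and 18.1% higher. The median log2 fold change of the 9 receptors was -0.17, beside 0.0026 over all genes tested.

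Transcripts of other cells of the marrow moved with genotype in the same libraries. All 5 promyelocyte markers rose, with a summed FPKM of 128.7 to 143.8 in WT and of 608.7 to 670.4 in PGRN KO. Of the markers tested, all 4 of B and plasma cells and 5 of 6 of basophils and eosinophils rose as well, from summed ranges of 24.4 to 26.6 and 3.06 to 3.80 FPKM to ranges of 71.6 to 86.9 and 13.9 to 18.5. Kit, the 1 progenitor marker of 3 that was tested, rose (log2 fold change 0.37), but was called in 1 of 6 fits that left out 1 library, the fit without WT replicate 1, and not without a filter on low values. Of 5 T and NK cell markers Cd3e and Cd3g were at 0 in every library, and 1 was tested and not called. In bulk RNA, fewer cells of a type and less RNA per cell cannot be told apart, and the part of these other cells in the receptor values was not tested.

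**Figure D1:**
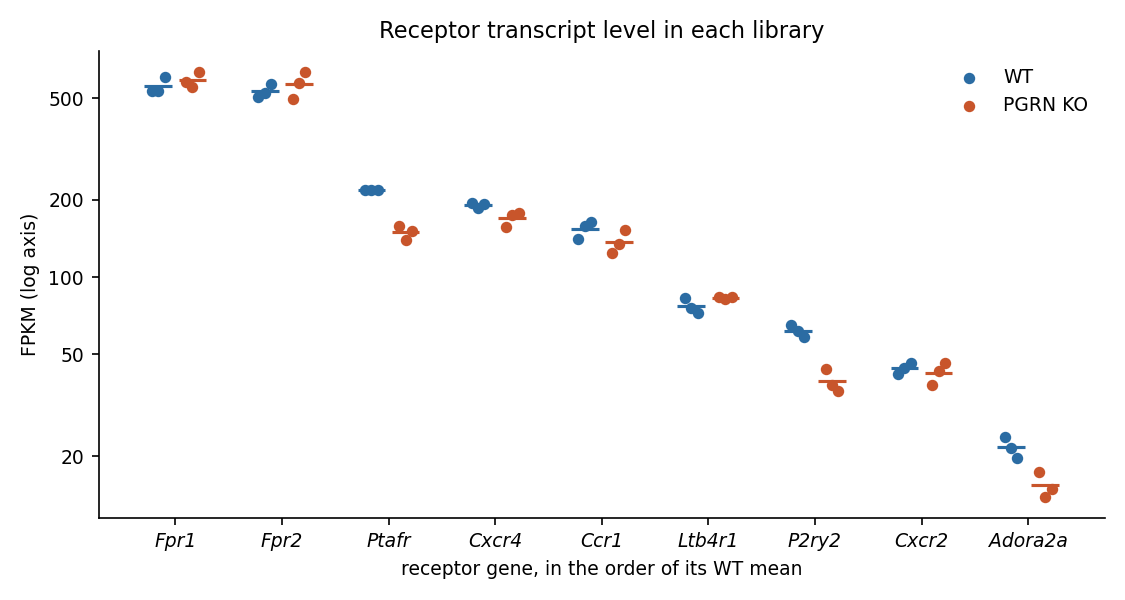
FPKM of each receptor (log axis) in the 3 WT (blue) and 3 PGRN KO (orange) libraries, with receptors in the order of their WT mean; points are libraries and short lines are means. The PGRN KO points of Ptafr, P2ry2 and Adora2a lie below all WT points of the same gene, and those of Fpr1 and Fpr2 mix with them.

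P2Y2 is the receptor for extracellular ATP and UTP, and its transcript changed most. P2ry2 (ENSMUSG00000032860, chr7:100996568-101012866, with 6 transcripts in GENCODE M21) measured 65.2, 61.9 and 58.5 FPKM in WT against 43.9, 37.8 and 35.9 in PGRN KO. The lowest WT library was above the highest PGRN KO library. Means were 61.9 ± 3.38 and 39.2 ± 4.18 FPKM (SD, n = 3 each), and the log2 fold change on log2(FPKM + 1) was -0.65 (standard error 0.082, 95% interval -0.84 to -0.45, adjusted p = 0.00362). It stayed called in all 6 fits that left out 1 library, with an adjusted p of at most 0.0212. Among 9248 other genes averaging 1 FPKM or more, those whose centred log2 values over the 6 libraries were closest to P2ry2 were Jun, Rhov and Gadd45b, with a root mean square difference of 0.023, 0.031 and 0.041 on the log2 scale. Their log2 fold changes were -0.62, -0.60 and -0.61, and the measure favours genes with a like genotype difference. Shared regulation was not tested. Jun encodes a subunit of AP-1, Rhov a small GTPase and Gadd45b a stress response protein.

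The receptor encoded by Adora2a binds adenosine and raises cyclic AMP. Adora2a (ENSMUSG00000020178, chr10:75316877-75334784) was the lowest of the 9 in both genotypes, with an FPKM of 23.7, 21.6 and 19.7 in WT and of 17.3, 13.9 and 15.0 in PGRN KO. The groups did not overlap, although the lowest WT and the highest PGRN KO library were closer than for P2ry2. The mean fell from 21.7 ± 2.04 to 15.4 ± 1.74 FPKM (SD, n = 3 each), measured from 3368 and 2621 fragments, and the log2 fold change was -0.47 (standard error 0.097, 95% interval -0.70 to -0.24, adjusted p = 0.0198). This call was the least stable of the 3. The adjusted p rose to 0.0594 without WT replicate 1, 0.0666 without WT replicate 2, 0.0685 without PGRN KO replicate 5 and 0.0582 without PGRN KO replicate 6, with log2 fold changes between -0.47 and -0.40 in these fits.

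Platelet-activating factor is a phospholipid that primes neutrophils for degranulation and oxidant release. Its receptor gene Ptafr (ENSMUSG00000056529, chr4:132564067-132582683) hardly varied in WT, at 218.3, 218.3 and 219.0 FPKM, against 157.9, 139.7 and 151.2 FPKM in PGRN KO. The highest PGRN KO library was far below the WT range. Means were 218.5 ± 0.406 and 149.6 ± 9.19 FPKM (SD, n = 3 each), with a log2 fold change of -0.55 (standard error 0.052, 95% interval -0.67 to -0.42, adjusted p = 0.00132). Ptafr was called in all 6 fits that left out 1 library.

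Leukotriene B4, made by the neutrophil itself, relays a chemotactic signal between cells through the receptor encoded by Ltb4r1. Ltb4r1 (ENSMUSG00000046908, chr14:55765962-55768494) had an FPKM of 82.8, 75.5 and 72.6 in WT and of 83.6, 82.2 and 83.7 in PGRN KO. The highest WT library lay within the PGRN KO range. With means of 77.0 ± 5.23 and 83.2 ± 0.831 (SD, n = 3 each), its log2 fold change was 0.11 (95% interval -0.018 to 0.24, adjusted p = 0.214). The call depended on how the libraries were scaled, and voom used the same library sizes as plain totals. Ltb4r1 was called higher with quantile normalization (log2 fold change 0.20, adjusted p = 0.0341), with plain totals of fragments (0.23, adjusted p = 0.0295) and with voom on recovered fragments (0.23, adjusted p = 0.00867).

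**Figure D2:**
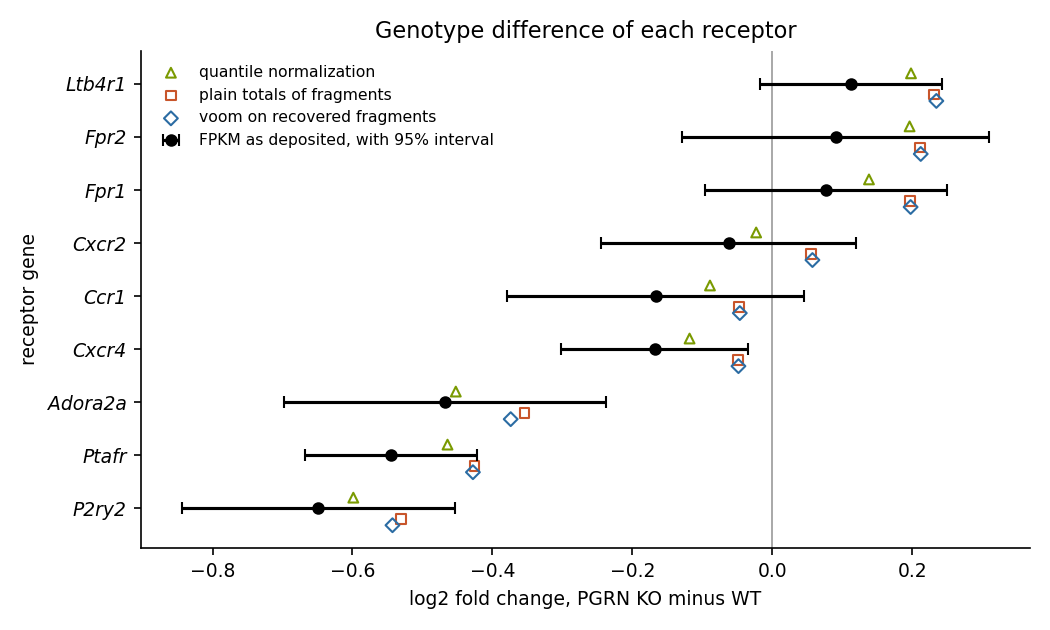
Log2 fold change (PGRN KO minus WT) of each receptor from the deposited FPKM, with its 95% interval (black), beside the values with quantile normalization (triangles), plain totals of fragments (squares) and voom on recovered fragments (diamonds). P2ry2, Ptafr and Adora2a lie below 0 under every scaling, from -0.65 to -0.35, and Cxcr2 crosses 0.

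The size of every difference moved with quantile normalization, plain totals and voom, and hardly with median-of-ratios scaling. Compared with plain totals of fragments, the authors' divisors place PGRN KO below WT by 0.12 more on the log2 scale. Voom took the plain totals as its library sizes. Across all genes, 44.4% of the called genes were higher with the deposited FPKM, 69.7% with plain totals and 70.4% with voom. With voom the median log2 fold change of all genes was 0.12, and relative to that median Ltb4r1 was at 0.11, Fpr1 at 0.074, Fpr2 at 0.089, Cxcr2 at -0.066, Ptafr at -0.55, Adora2a at -0.50 and P2ry2 at -0.67. P2ry2, Ptafr and Adora2a were called lower under all 4 other scalings, of which plain totals and voom share their library sizes. Median-of-ratios scaling nearly repeated the deposited one, with log2 fold changes of -0.648, -0.544 and -0.467 beside -0.649, -0.545 and -0.468.

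The formyl peptide receptors recognise peptides that begin with formylmethionine, released by bacteria and by damaged mitochondria, and Fpr2 also binds annexin A1, serum amyloid A and cathelicidin peptides. They were the most abundant of the 9, and together made up 57.5% to 60.2% of the summed FPKM of the 9 receptors in WT and 63.4% to 65.5% in PGRN KO. That sum also holds P2ry2, Ptafr and Adora2a, which were lower in PGRN KO. Fpr1 (ENSMUSG00000045551, chr17:17876471-17883940) had an FPKM of 531.7, 533.9 and 604.5 in WT and of 579.9, 550.9 and 630.5 in PGRN KO, and Fpr2 (ENSMUSG00000052270, chr17:17887824-17893952) had 505.4, 522.2 and 566.3 in WT and 497.7, 574.3 and 631.8 in PGRN KO. The genotypes overlapped for both genes. The log2 fold change was 0.077 for Fpr1 (95% interval -0.096 to 0.25, adjusted p = 0.518) and 0.091 for Fpr2 (95% interval -0.13 to 0.31, adjusted p = 0.551). With voom, where the whole table moved upward, both were called higher, with log2 fold changes of 0.20 and 0.21 and an adjusted p of 0.0132 and 0.0202.

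Among the chemokine receptors, CXCR2 binds CXCL1, CXCL2 and related ELR chemokines. Cxcr2 (ENSMUSG00000026180, chr1:74153989-74161246) had an FPKM of 41.9, 44.4 and 46.1 in WT and of 38.0, 42.9 and 46.0 in PGRN KO. The ranges lay almost on top of each other, and the log2 fold change was -0.062 (95% interval -0.24 to 0.12, adjusted p = 0.627). It was 0.055 with plain totals and 0.058 with voom, so no direction can be given for Cxcr2.

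Cxcr4 (ENSMUSG00000045382, chr1:128588199-128592293), the receptor for CXCL12, had an FPKM of 194.0, 185.9 and 193.1 in WT and of 157.4, 174.2 and 178.7 in PGRN KO. All PGRN KO libraries were below all WT libraries, by a small margin. The log2 fold change was -0.17 (95% interval -0.30 to -0.034, unadjusted p = 0.0212, adjusted p = 0.0872), so Cxcr4 did not pass after adjustment over all genes in limma. With plain totals it was -0.048.

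Ccr1 (ENSMUSG00000025804, chr9:123962124-123968692) binds CCL3, CCL5, CCL6 and CCL9 in the mouse. It had an FPKM of 141.3, 158.0 and 163.7 in WT and of 124.7, 134.9 and 153.3 in PGRN KO. The genotypes overlapped, and the log2 fold change was -0.17 (95% interval -0.38 to 0.046, adjusted p = 0.256).

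The order of the levels differed between the genotypes in 2 places. In WT, with the deposited gene lengths, the order was Fpr1, Fpr2, Ptafr, Cxcr4, Ccr1, Ltb4r1, P2ry2, Cxcr2 and Adora2a. Of these neighbours the ranges of Fpr1 and Fpr2 alone overlapped. Other lengths could change the order. Fpr1 had 25.7 times the FPKM of Adora2a. In PGRN KO Cxcr4 came before Ptafr and Cxcr2 before P2ry2, and ranges overlapped between Fpr1 and Fpr2, between Cxcr4 and Ptafr, between Ptafr and Ccr1, and between Cxcr2 and P2ry2, so that the new order within these pairs is not beyond their spread. Fpr1 had 38.1 times the FPKM of Adora2a there.

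Ratios between receptors of the same library do not change when a library is scaled by a single factor, and 5 of them were compared. The ratio of Ptafr to Ltb4r1 differed most. It was 2.64, 2.89 and 3.02 in WT against 1.89, 1.70 and 1.81 in PGRN KO, a difference of -0.66 in mean log2 ratio. The ratio of Adora2a to P2ry2 was 0.364, 0.348 and 0.337 in WT and 0.394, 0.368 and 0.417 in PGRN KO, a difference of 0.17, since P2ry2 had the larger fall. The ratio of Cxcr4 to Cxcr2, of the retention to the egress receptor, was 4.63, 4.19 and 4.19 in WT and 4.14, 4.06 and 3.88 in PGRN KO, a difference of -0.11. The ratio of Ccr1 to Cxcr2 was 3.37, 3.56 and 3.56 in WT and 3.28, 3.14 and 3.33 in PGRN KO, a difference of -0.10. For these 4 ratios the groups did not overlap, with p = 0.10 by an exact two-sided permutation test, which is the smallest p that 3 against 3 libraries allow, and 0.125 after adjustment over the 5 ratios. The ratio of Fpr1 to Fpr2 was 1.05, 1.02 and 1.07 in WT and 1.17, 0.959 and 0.998 in PGRN KO, and its groups overlapped (difference -0.014, exact permutation p = 0.90).

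**Figure D3:**
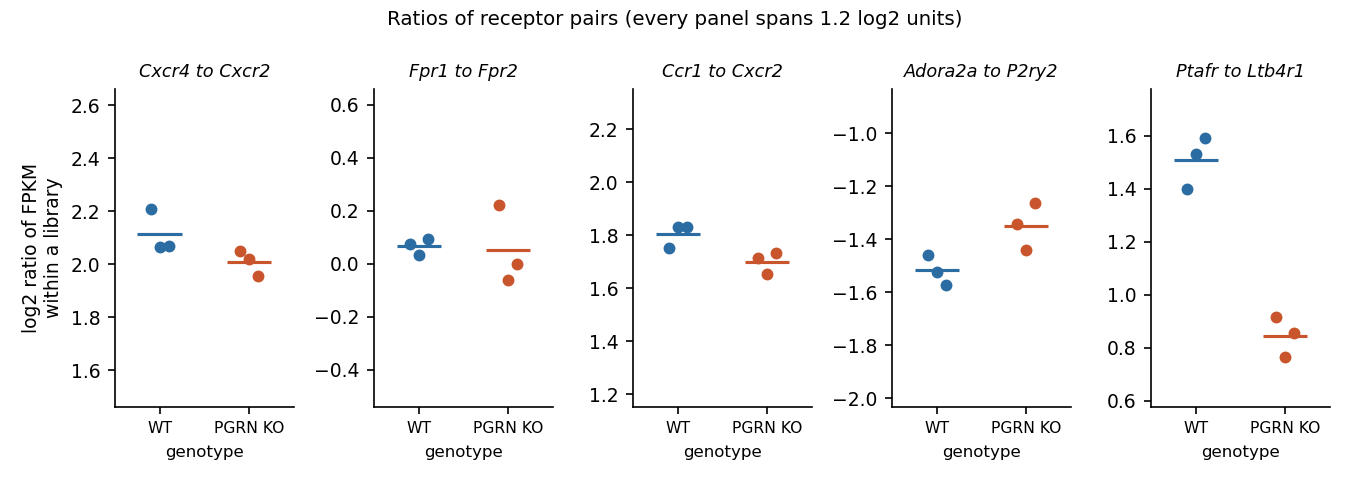
Log2 ratio of the FPKM of 2 receptors within each library, for 5 pairs and 3 libraries of each genotype (blue, WT; orange, PGRN KO), with lines at the means and every panel drawn over the same span of log2 units. The panel of Ptafr to Ltb4r1 shows the widest separation, -0.66 between the means.

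Other receptors for chemoattractants and soluble mediators were followed as a list of 27 genes, of which 19 were tested. Of these, 8 were called lower and none higher in PGRN KO by limma (at 9.95% and 7.94% of all genes), and the median log2 fold change was -0.086. Ccr7, which guides leukocytes to lymph nodes, fell from 25.1 ± 1.19 to 11.6 ± 1.66 FPKM (SD, n = 3 each; log2 fold change -1.06). C3ar1, the receptor for the complement fragment C3a, fell from a mean of 22.5 to 11.7 FPKM (log2 fold change -0.90). Ccrl2, an atypical receptor that binds chemerin without signalling, and Hcar2, the receptor for nicotinic acid and beta-hydroxybutyrate, exceeded all 9 receptors in level and fell from 1317 to 835.3 and from 2133 to 1413 FPKM (log2 fold changes -0.66 and -0.59). Ccr2, a receptor typical of monocytes, fell by 0.82 on the log2 scale, from a mean of 3.82 to 1.73 FPKM. Ptger2 and Ptger4, receptors for prostaglandin E2, were called lower as well (log2 fold changes -0.20 and -0.37), but with plain totals neither passed (adjusted p = 0.232 and 0.0636), and with voom Ptger2 did not (adjusted p = 0.341). Plain totals gave 6 called lower and 1 higher, beside 934 lower and 2149 higher of all 14807 genes. C5ar1, the main C5a receptor of neutrophils, had a log2 fold change of -0.018 (95% interval -0.12 to 0.088). Ccr7, C3ar1, Ccrl2, Hcar2 and Ccr2 were called lower in every alternative fit.

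Monocyte markers were measured beside these falls. Of 6 markers, 2 fell, among them F13a1 (log2 fold change -0.46), Ly6c2 rose (0.37), and Csf1r, Adgre1 and Ms4a7 did not pass. No marker of this list was called higher when any single library other than PGRN KO replicate 4 was omitted, nor without a filter on low values or without the eBayes trend. Their summed FPKM, most of it from Ly6c2, lay between 521.8 and 527.8 in WT and between 549.3 and 696.4 in PGRN KO. Their part in the receptor values was not tested.

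Ligands of the 9 receptors were transcribed in the same cultures. Of 15 listed ligand genes, 12 were tested, and 7 fell and none rose with the deposited FPKM (at 9.95% and 7.94% of all genes). The median log2 fold change was -0.34. Ccl9, Ccl5, Ccl6 and Ccl3, which act on CCR1, fell with log2 fold changes of -0.77, -0.70, -0.66 and -0.33, and Ccl3 was the highest of the list, falling from 5612 ± 267.9 to 4462 ± 203.6 FPKM (SD, n = 3 each). The CXCR2 ligands Cxcl3, Cxcl1 and Cxcl2 fell as well (log2 fold changes -0.76, -0.36 and -0.28). The ligands of Fpr2 among those tested, Anxa1, Saa3 and Camp, had log2 fold changes of 0.19, 0.30 and 0.10 and did not pass. With quantile normalization 5 ligands were called lower and 2 higher, beside 1398 and 1144 of all 14807 genes. Ccl3 and Cxcl2 lost their calls there (adjusted p = 0.169 and 0.644 from limma). Cxcl2 was not called with plain totals either (log2 fold change -0.16, adjusted p = 0.117). Under voom 7 ligands were called lower and 3 higher, the latter being Anxa1, Saa3 and Camp, beside 1252 and 2984 of all genes.

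Enzymes that make or break down the mediators moved in both directions. Of 10 genes tested, 4 rose and 2 fell (at 7.94% and 9.95% of all genes), and the median log2 fold change was 0.097. The genes that rose were those of leukotriene B4 synthesis, Alox5 (5-lipoxygenase), Alox5ap (its activating protein) and Lta4h (leukotriene A4 hydrolase), with log2 fold changes of 0.27, 0.33 and 0.32, and Lpcat2, which makes platelet-activating factor, with 0.31. Lta4h went from 41.0 ± 1.72 to 51.5 ± 1.96 FPKM and Lpcat2 from 85.8 ± 2.71 to 107.0 ± 6.29 (SD, n = 3 each). The genes that fell were Nt5e (CD73) and Entpd1 (CD39), the surface enzymes that turn ATP stepwise into adenosine, with log2 fold changes of -0.60 and -0.37. Alox5 kept its call in 1 of 6 fits that left out 1 library, Nt5e in 2 and Alox5ap in 4. Of the receptors for ATP and adenosine, P2ry2 and Adora2a were lower in the same libraries as these enzymes. Among 9 other adenosine and nucleotide receptors tested, 1 rose and 1 fell (at 7.94% and 9.95% of all genes). Ptafr was lower where Lpcat2 was higher, and no link between receptors and enzymes was tested.

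Of 11 other adenosine and nucleotide receptors, 9 were tested, of which 1 rose and 1 fell (at 7.94% and 9.95% of all genes). P2rx1, an ATP-gated channel, rose from 1.33 ± 0.0616 to 2.09 ± 0.156 FPKM (SD, n = 3 each; log2 fold change 0.41), and P2ry6, a receptor for UDP, fell from 3.61 ± 0.437 to 2.47 ± 0.255 (log2 fold change -0.41). P2ry6 was called in 2 of 6 fits that left out 1 library, and not with plain totals of fragments. Adora2b, the low-affinity adenosine receptor, was at a higher level than Adora2a in both genotypes, and its log2 fold change was -0.023 (95% interval -0.15 to 0.10). The median of the list was 0.0080.

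**Figure D4:**
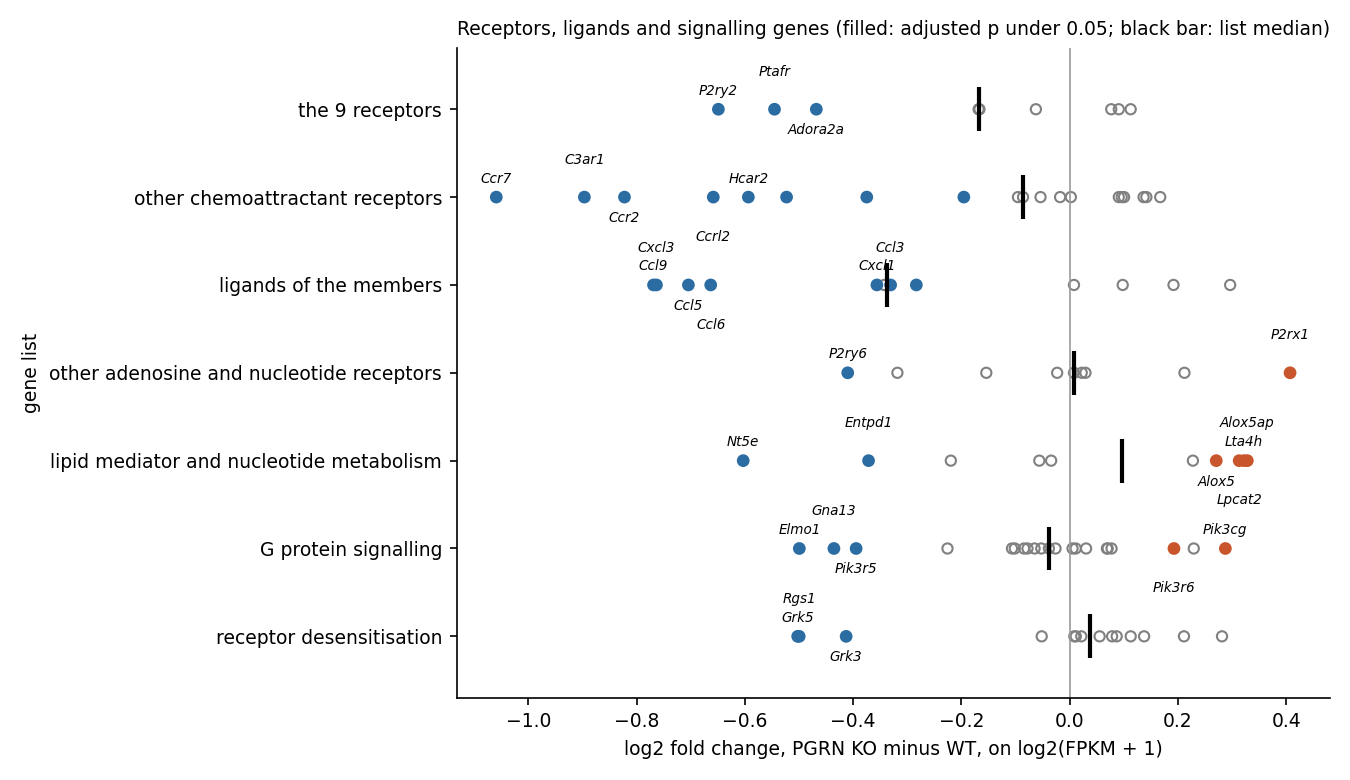
Log2 fold change of every tested gene in the 9 receptors and in 6 lists of related genes, on log2(FPKM + 1); filled points passed an adjusted p under 0.05 (blue lower, orange higher in PGRN KO), open grey points did not, and black bars are list medians. The called genes among other chemoattractant receptors and ligands lie to the left of 0, and those of lipid mediator and nucleotide metabolism lie on both sides.

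Downstream of the receptors, 21 genes of G protein signalling were tested, of which 2 rose and 3 fell (at 7.94% and 9.95% of all genes). The median log2 fold change was -0.038. With plain totals 5 rose and 3 fell, beside 2149 and 934 of all 14807 genes. With voom 6 rose and 3 fell, beside 2984 and 1252 of all genes. The list median was then 0.074 and 0.080, beside 0.067 and 0.12 over all genes. Gnai2, the main Gi alpha subunit of neutrophils, ranged between 328.7 and 359.1 FPKM in WT and between 352.1 and 371.9 in PGRN KO. It did not pass with the deposited FPKM (log2 fold change 0.070, 95% interval -0.045 to 0.19). Gnai2 was called higher by limma with plain totals and with voom (adjusted p = 0.0397 and 0.0058). Elmo1, which works with DOCK2 to activate Rac, fell from 9.48 ± 0.285 to 6.41 ± 0.0457 FPKM (SD, n = 3 each; log2 fold change -0.50), and Gna13, which couples receptors to contraction at the rear of the cell, fell from 69.0 ± 2.69 to 50.8 ± 0.959 (log2 fold change -0.44). The phosphoinositide 3-kinase gamma genes diverged. The catalytic subunit Pik3cg and the adaptor Pik3r6 rose (log2 fold changes 0.29 and 0.19) and the adaptor Pik3r5 fell (-0.39). Pik3cg was called in 2, Pik3r6 in 0 and Pik3r5 in 4 of 6 fits with 1 library omitted.

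Receptor desensitisation, by kinases, arrestins and regulators of G protein signalling, was followed in 14 genes, all tested, with a median log2 fold change of 0.038. Of these, 3 fell and none rose (at 9.95% and 7.94% of all genes). They were Grk5 and Grk3, kinases that phosphorylate active receptors (log2 fold changes -0.50 and -0.41), and Rgs1, which shortens Gi signalling (-0.50). Grk3 was called in 3 of 6 fits with 1 library omitted, and not without WT replicate 1, WT replicate 2 or PGRN KO replicate 5. The more abundant Grk2, Grk6 and Arrb2 did not pass with the deposited FPKM, with log2 fold changes of 0.14, 0.022 and 0.055. The groups did not overlap for Grk2. It was called higher by limma with plain totals, quantile normalization and voom (adjusted p = 0.0094, 0.029 and 0.0012). Arrb2 was called higher with quantile normalization and voom (adjusted p = 0.045 and 0.024). Under plain totals and quantile normalization 3 of the 14 were called lower and 2 higher, and under voom 3 lower and 6 higher. Of all 14807 genes, 934 were called lower and 2149 higher under plain totals. The counts were 1398 and 1144 under quantile normalization, and 1252 and 2984 under voom.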

How the data were processed

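RNA of 6 neutrophil cultures, 3 WT and 3 PGRN KO, was sequenced as paired-end libraries, and samples were grouped by their titles. The authors filtered their reads, aligned them to the mouse genome (mm10, GRCm38 in the submitters' processing notes) and deposited FPKM values for 54532 genes. Their methods name HISAT and HTSeq, while the notes name HISAT2 2.0.5 and featureCounts 1.5.0-p3. The deposited FPKM times gene length gave whole fragments within 0.05 for every value above 0. Of 54495 gene identifiers shared with GENCODE M21, 53585 had the same start and end.

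Differences between genotypes on log2(FPKM + 1) were fitted with limma 3.58.1 (lmFit, eBayes with trend) in R 4.3.3 over the 14807 genes averaging 0.1 FPKM or more, two-sided, with Benjamini-Hochberg adjustment over these genes. FPKM are not counts, so no count model was the main test. Fold changes on this scale understate low genes. The fit was tested on simulated data with the same dispersion setting for every gene, and the outcome is not reported here. Ratios, with no pseudocount, were compared by exact permutation with scipy 1.17.1. The members and the 6 pathway and 7 marker lists were chosen with earlier results of these data known. Named besides Grn and the members were the called genes of each list averaging 1 FPKM or more, up to 6 by size of log2 fold change, and the 3 genes most like the member with the largest fall. Other list members are named where the text describes the list, and these were chosen after their values were seen. A few list genes are counted but not reported by name here. Alternatives were 2 pseudocounts, 2 filters, 3 scalings, voom, 2 eBayes settings, protein-coding genes alone and each library left out. No replicate pair agreed within sampling noise (chi-square per degree of freedom of at least 2.83), and fragment numbers cover counting error only.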

Additional observations from a re-analysis of the deposited data

How the results depend on the processing

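Ptafr and P2ry2 were called lower under all 17 alternatives, and Adora2a in 13, the exceptions being 4 of the 6 fits that left out 1 library. Leaving out 1 library gave 1385 to 2229 genes called across the table and 2 to 3 of the receptors. The count of 2648 genes fell to 1682 without WT replicate 1, 1456 without WT replicate 2, 1749 without WT replicate 3 and 1385 without PGRN KO replicate 5. Log2 fold changes in these fits ran from -0.12 to 0.011 for Cxcr2, the value above 0 being without PGRN KO replicate 4, from -0.55 to -0.40 for Adora2a, and for the log2 ratio of Fpr1 to Fpr2 the difference ran from -0.098 to 0.042, above 0 without PGRN KO replicate 5 (0.042) and replicate 6 (0.014). The lists gave 1 to 2 called genes for other adenosine and nucleotide receptors (1 without WT replicate 2 or 3 or PGRN KO replicate 4 or 5), 2 to 4 for G protein signalling (2 without WT replicate 2 or PGRN KO replicate 5, 3 without WT replicate 1 or PGRN KO replicate 6), and 3 to 6 for lipid mediator and nucleotide metabolism, the last at 3 without WT replicate 2 or PGRN KO replicate 5.

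With voom on recovered fragments 4236 genes and 6 receptors were called, with Fpr1 at 0.20, Fpr2 at 0.21, Ltb4r1 at 0.23 and Cxcr2 at 0.058, and 9 genes each of G protein signalling and of receptor desensitisation. With plain totals Ltb4r1 was called at 0.23 and Cxcr2 was at 0.055, and 8, 5 and 1 genes were called for G protein signalling, receptor desensitisation and other adenosine and nucleotide receptors. With quantile normalization Ltb4r1 was called at 0.20 and 5 desensitisation genes were called. Without a filter on low values 1 gene of the other adenosine and nucleotide receptors was called. Plain totals raise PGRN KO values against WT by construction, and voom took the same totals as its library sizes. The cause of the other shifts was not tested. No paired analysis was made because the labels name no pairs of cultures. With 3 libraries a genotype and the deposited FPKM, the 95% intervals of the receptors not called still allow changes of up to 0.38 on the log2 scale, at Ccr1. Intervals under other scalings were not computed. Fpr2, not called there, was at 0.20 (standard error 0.11) with quantile normalization and 0.21 (0.092) with plain totals.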

Other observations

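Fpr3, a relative of Fpr2 that was tested and not called, varied widely between replicates. It had an FPKM of 3.39, 3.22 and 11.97 in WT and of 5.57, 2.56 and 11.4 in PGRN KO, a coefficient of variation of 80.8% and 69.0%, where the 9 receptors had at most 11.8%. It was chosen here after its values were seen. Of the 50-base windows of the Fpr2 transcript, 77 of 1084 also occur in Fpr3.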
